A study of Mus musculus with 5 samples.

Results

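Serine proteases of epithelia and the proteins that inhibit them were compared between the 2 cell populations of the series. The genes were chosen by name, as the mouse genes of 7 families: the kallikreins (Klk), the type II transmembrane serine proteases (Tmprss) and the Prss proteases on one side, and the clade B serpins (Serpinb), the Kazal-type inhibitors (Spink), the Kunitz-type inhibitors (Spint) and the cystatins (Cst) on the other. These families held 135 of the 24347 gene symbols in the deposited tables, 82 proteases and 53 inhibitors. The tested genes were those at FPKM 1 or more in at least 2 libraries, 34 of 9682 such genes in all. FPKM corrects the fragments of a transcript for its length and for library depth, so levels of different genes can be set side by side, but only roughly. The housekeeping gene Eno1 was listed at 0 in all libraries, so a value of 0 may be an estimate that failed. Ratios, shares and sums over genes carry this limit.

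Extracellular serine proteases are made as inactive precursors and are switched on by cleavage, often by one another. In stratified epithelia kallikreins cut the desmosomal and corneodesmosomal proteins that hold cells together, and Spink inhibitors restrain them. Membrane-anchored proteases such as matriptase and prostasin act at the cell surface under the control of the Kunitz inhibitors encoded by Spint1 and Spint2. Clade B serpins are mostly intracellular and trap serine or cysteine proteases in an irreversible complex, and cystatins block cysteine cathepsins.

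All cells came from mammary glands of MMTV-Wnt-1 transgenic mice, on a mixed background of FVB, SJL and C57BL/6, in which the MMTV promoter drives Wnt-1 in the mammary epithelium and hyperplastic lesions form. There were 2 libraries of Krt6a+ cells, named in the labels as keratin 6a positive precancerous stem cells and numbered 2 and 3, and 3 libraries of cells positive for the milk protein WAP, numbered 1 to 3. Each library was amplified from a small number of cells sorted with an antibody to TVA, and both populations carried the same transgene, so no normal mammary epithelium was compared. The labels give neither the age of the mice, nor how TVA marked each population, nor whether each library was taken from a mouse of its own. The p-values therefore rest on the spread among these samples alone, and that spread may be technical.

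The libraries held 8112 to 8900 genes at FPKM 1 or more. The widths of the deposited confidence intervals, read as 95% counting error, corresponded to about 4570000 to 6940000 fragments per library. Levels below are deposited FPKM, given for Krt6a+ libraries 2 and 3 and then for WAP+ libraries 1, 2 and 3. Krt6a had FPKM 1380 and 1133 in Krt6a+ against 168, 50.0 and 120 in WAP+ cells (limma, adjusted p = 0.0384), and Wap was listed at 0 in both Krt6a+ libraries and had 50.1, 126 and 13.9 in the WAP+ libraries (limma, adjusted p = 0.0448). Wap was tested only through the WAP+ libraries, so the filter on low values set its direction. Both genes name the populations, and their p-values are no independent support. Both calls were lost with 1 library left out, for Krt6a when any WAP+ library or Krt6a+ library 2 was missing, with adjusted p up to 0.166, and for Wap in the same refits, up to 0.201. All 6 epithelial markers were above 0 in every library. Of 9 leukocyte markers, Ptprc, Cd3e, Adgre1, Lyz2 and Itgam were at 0 in all libraries and the list summed to FPKM 0 to 3.59 in the Krt6a+ and 1.40 to 4.81 in the WAP+ libraries, and 6 mast cell markers were all at 0. Fibroblast markers summed to 57.5 and 210 in Krt6a+ against 8.60 to 84.2 in WAP+ cells, most of it Dcn. Markers of skin differentiation summed to 219 and 47.5 against 41.0, 0 and 0.15, with Krt1, Ivl and Krt2 at 0 throughout. The 6 basal and myoepithelial markers did not go one way. Krt5 had 434 and 374 in Krt6a+ against 22.4, 13.4 and 34.7 in WAP+ cells, and Krt14 and Trp63 also lay above in Krt6a+ libraries. Acta2 had 0.66 and 0.40 against 23.7, 25.2 and 8.35 (limma, log2 difference -3.62, adjusted p = 0.0550), Myh11 had 0.03 in each Krt6a+ library against 1.00, 0.54 and 1.23, and Oxtr stayed at or below 0.26. Acta2 too was tested only through the WAP+ libraries, which set its direction. The luminal keratin Krt8 had 66.2 and 719 against 1664, 1917 and 1681, and the 8 luminal and alveolar markers summed to 953 and 3344 against 12706, 9244 and 7357. Fabp4, the 1 adipocyte marker of 5 above 0, was at 0 in both Krt6a+ libraries and had 2188, 65.8 and 20.3 in the WAP+ libraries. The neutrophil markers did not go one way. Ltf had 420 and 320 against 117, 44.5 and 80.0, and S100a9 had 0 and 0 against 10.6, 9.81 and 116. Their list summed to 420 and 320 against 128, 54.9 and 196, nearly all of it Ltf or S100a9. Mpo, Elane, Ngp and Camp were at 0 throughout. Endothelial markers stayed below 1 except for 23.4 in WAP+ library 1. The part of any of these in the results that follow was not tested, and in such bulk samples fewer cells of a type and less RNA per cell cannot be told apart. The Krt6a+ libraries were less alike (Spearman's rho 0.743 over 5334 genes) than the WAP+ libraries (0.843 to 0.849). Between the populations rho ran from 0.696 to 0.761. Krt6a+ library 3 was closer to WAP+ libraries 1 and 3 (0.761 and 0.750) than to Krt6a+ library 2, so the 2 Krt6a+ libraries did not group apart from the WAP+ libraries.

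The Tmprss11 cluster of chromosome 5 and the clade B serpin cluster of chromosome 1 each held several genes whose levels lay higher in both Krt6a+ libraries than in any WAP+ library, as did 17.4% of all tested genes. The bases just upstream of 6 of them are shown for that reason. Of these, Tmprss11b, Tmprss11f and Serpinb2 passed the filter on low values only through the Krt6a+ libraries and had to lie higher there. The 6 were thus picked by their levels, and a link of letters to levels was not tested. Each line gives the 250 bases before the transcript start, 5′ to 3′ on the strand of the gene, from RefSeq on build GRCm38.p6. Capitals mark matches to TGANTCA, a looser form of the AP-1 letters TGACTCA or TGAGTCA, and not every match is an AP-1 site.
Tmprss11d chr5:86373388-86373637 (minus strand): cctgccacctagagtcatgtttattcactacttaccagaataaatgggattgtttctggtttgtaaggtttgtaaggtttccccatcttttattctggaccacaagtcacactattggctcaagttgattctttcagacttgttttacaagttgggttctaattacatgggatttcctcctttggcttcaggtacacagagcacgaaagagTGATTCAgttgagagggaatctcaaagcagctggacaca
Tmprss11f chr5:86632425-86632674 (minus strand): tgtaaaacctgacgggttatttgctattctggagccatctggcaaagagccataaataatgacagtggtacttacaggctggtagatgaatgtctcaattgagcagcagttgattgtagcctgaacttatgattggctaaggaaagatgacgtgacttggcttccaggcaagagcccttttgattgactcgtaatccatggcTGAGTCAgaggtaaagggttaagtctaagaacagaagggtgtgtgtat
Tmprss11b chr5:86676299-86676548 (minus strand): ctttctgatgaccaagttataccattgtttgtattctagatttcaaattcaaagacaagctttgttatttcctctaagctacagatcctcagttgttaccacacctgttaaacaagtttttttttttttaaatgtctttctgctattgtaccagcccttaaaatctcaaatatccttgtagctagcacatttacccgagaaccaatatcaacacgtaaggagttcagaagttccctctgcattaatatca
Serpinb11 chr1:107362064-107362313 (plus strand): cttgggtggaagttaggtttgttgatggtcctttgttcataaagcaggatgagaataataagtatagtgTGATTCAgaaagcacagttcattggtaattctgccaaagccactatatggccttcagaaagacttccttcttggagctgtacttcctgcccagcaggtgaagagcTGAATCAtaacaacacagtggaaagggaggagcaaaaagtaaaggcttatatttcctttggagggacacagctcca
Serpinb2 chr1:107511173-107511422 (plus strand): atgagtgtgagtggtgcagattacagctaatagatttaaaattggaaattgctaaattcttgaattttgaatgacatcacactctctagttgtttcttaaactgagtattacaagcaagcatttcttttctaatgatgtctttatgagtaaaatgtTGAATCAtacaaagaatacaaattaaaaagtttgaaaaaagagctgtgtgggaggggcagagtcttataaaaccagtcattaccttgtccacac
Serpinb8 chr1:107589756-107590005 (plus strand): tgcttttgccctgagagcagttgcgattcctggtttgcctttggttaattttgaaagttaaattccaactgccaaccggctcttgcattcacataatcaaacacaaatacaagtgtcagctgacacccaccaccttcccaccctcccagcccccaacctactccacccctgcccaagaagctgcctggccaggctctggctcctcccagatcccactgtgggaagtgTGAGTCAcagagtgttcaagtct

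Such a window was at hand for 25 of the 34 tested genes. TGANTCA, which reads alike on both strands, was found in 6 of these 25 windows and in 6.75% of all 32851 promoters of the same length. The 6 were the printed windows of Tmprss11d, Tmprss11f, Serpinb11, Serpinb2 and Serpinb8, and that of Serpinb5, a gene whose levels overlapped between the populations. The stricter letters TGACTCA or TGAGTCA, which read as each other on the opposite strand and are part of TGANTCA, were in the windows of Serpinb8 and Tmprss11f and in 4.46% of all promoters. The marked letters of Tmprss11d, Serpinb2 and Serpinb11 were TGATTCA or TGAATCA, outside the stricter form. The match began at base -39 before the start of Tmprss11d, -48 of Tmprss11f, -23 of Serpinb8, -94 of Serpinb2, and -181 and -76 of Serpinb11, and the window of Tmprss11b had none. Read on both strands, TATAAA was in 1 of the 25 windows (Serpinb2, at -29) and 12.4% of all promoters, the KLF-type letters CCNCNCCC in 14 and 45.9%, and the STAT-type letters TTCNNNGAA in 2 and 7.02%. These matches are a description of letters, and no binding was measured.

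Of the 34 tested genes, 2 were higher in Krt6a+ libraries and 0 lower (limma, adjusted p under 0.05, adjusted over all 9682 genes), the proteases Tmprss11d and Tmprss11b. Over all tested genes 0.258% were called higher and 0.434% lower, 25 and 42 genes, or 39 and 39 with quantile normalization and 23 and 27 with no scaling. Before adjustment, 14 of the 34 were higher and 1 was lower at p under 0.05, against 7.68% and 9.44% of all tested genes. The difference was positive for 28 of the 34 genes, against 49.8% of all tested genes. The populations did not overlap for 19 of the 34 (34.8% of all tested genes): the 2 Krt6a+ libraries lay above all 3 WAP+ libraries for 18 (17.4%) and below them for 1, Cst3 (17.4%). These counts are descriptions, because 5 of the 34, Serpinb2, Spink5, Tmprss11b, Tmprss11e and Tmprss11f, passed the filter on low values only through the Krt6a+ libraries and had to lie higher there, while 0 passed only through the WAP+ libraries. Among the 29 genes that reached FPKM 1 in both populations, 13 lay above in Krt6a+ libraries, and among all such genes 16.7% did. The median log2 difference, Krt6a+ minus WAP+, was 1.32 over the 34 genes and -0.01 over all tested genes.

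**Figure D1:**
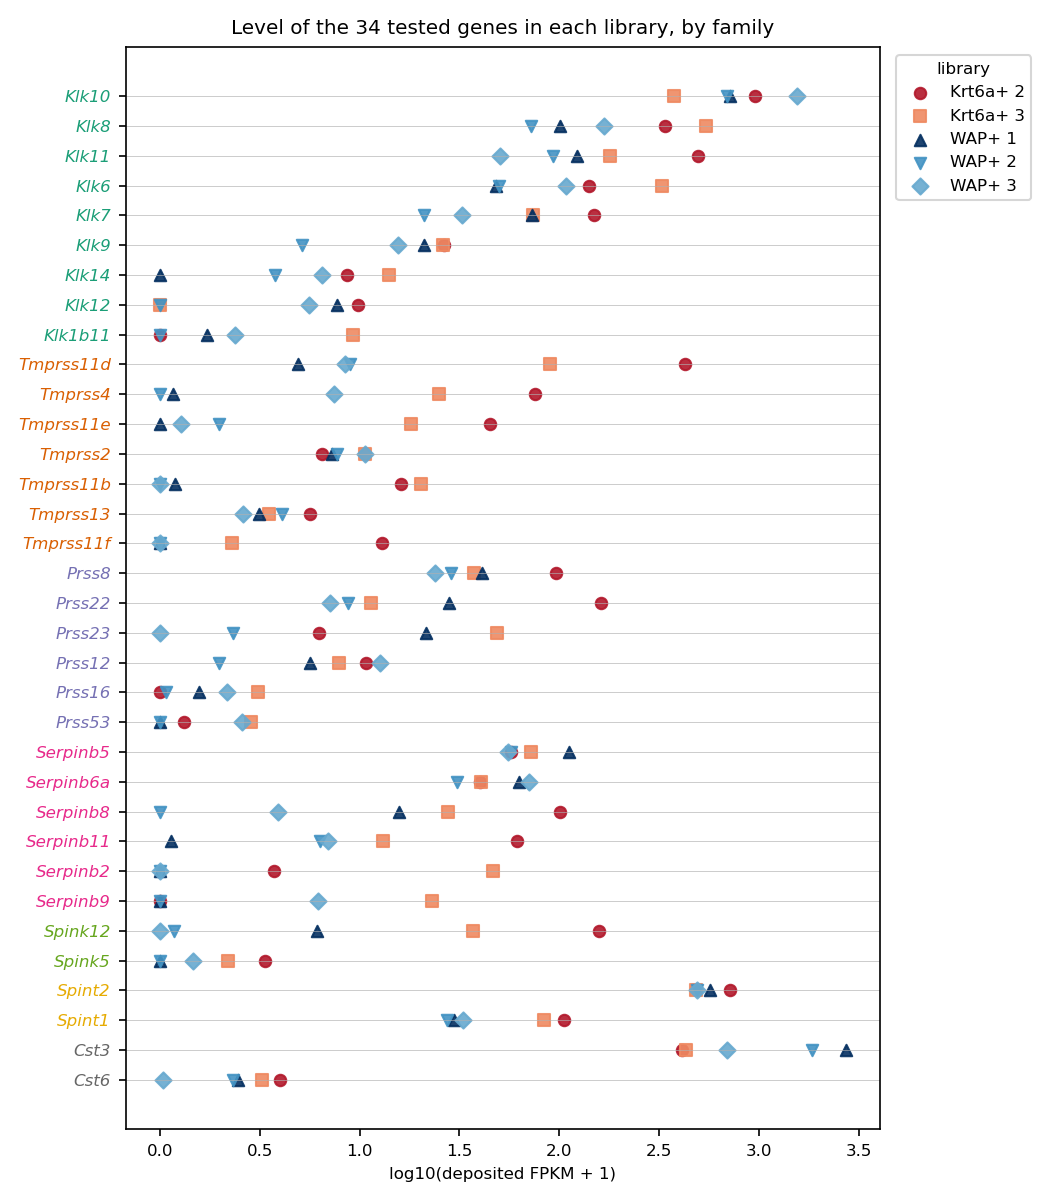
Level of each of the 34 tested genes (rows, coloured and grouped by family, in order of mean level within a family) as log10(deposited FPKM + 1) in the 2 Krt6a+ libraries (red circle, orange square) and the 3 WAP+ libraries (blue symbols). Tmprss11d lies at FPKM 424 and 89.1 in Krt6a+ against 3.93 to 7.92 in WAP+ cells, while Cst3 lies highest in the WAP+ libraries.

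Tmprss11 proteases, the airway trypsin-like and DESC-type enzymes that stratified epithelia carry on the cell surface, held both genes of the 7 families past the threshold, though Tmprss11b entered the test only through the Krt6a+ libraries. Tmprss11d, known as the human airway trypsin-like protease, had FPKM 424 and 89.1 in Krt6a+ against 3.93, 7.92 and 7.45 in WAP+ cells. The groups did not overlap, and Krt6a+ library 2 was far above library 3. The deposited confidence interval ran from 413 to 435 for Krt6a+ library 2 and from 2.59 to 5.26 for WAP+ library 1, so counting error was small beside the gap. The mean after scaling was 251 ± 245 (SD, n = 2) for Krt6a+ cells against 6.76 ± 2.93 (SD, n = 3) for WAP+ cells. On the log2(FPKM + 1) scale they differed by 4.64 ± 0.75 (SE; limma, adjusted p = 0.0480), or 25.0-fold. In mm10 its transcript NM_145561 spans bases 86302854 to 86373387 of chromosome 5 on the minus strand. The call was lost without Krt6a+ library 2 (log2 3.43, adjusted p = 0.0752) or without WAP+ library 1, 2 or 3 (4.25, 4.81 and 4.81, adjusted p = 0.138, 0.201 and 0.173), and also with a pseudocount of 0.1, no filter or no mean-variance trend (adjusted p = 0.0803, 0.180 and 0.0770).

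Tmprss11b, a less studied member of the same cluster (chromosome 5, 86659522 to 86676298), had FPKM 15.2 and 19.3 in Krt6a+ against 0.18, 0 and 0 in WAP+ cells. Both Krt6a+ libraries were close together, unlike those of Tmprss11d, and the value of 0.18 corresponded to about 2.0 fragments. The log2 difference was 4.01 ± 0.61 (SE; limma, adjusted p = 0.0448). Since the gene passed the filter on low values only through the Krt6a+ libraries, its direction was set by that filter and its p is no independent support. It depended on the pseudocount, from 2.05 with a pseudocount of 5 to 6.87 with 0.1, and at 0.1 the call was lost (adjusted p = 0.0820). Leaving out WAP+ library 1, 2 or 3 also ended the call (adjusted p = 0.136, 0.201 and 0.173), as did testing with no filter (0.178), and without either Krt6a+ library the gene did not pass the filter.

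Their neighbours went the same way without passing. Tmprss11e, the protease first described as DESC1, had FPKM 43.8 and 17.0 in Krt6a+ against 0, 0.98 and 0.28 in WAP+ cells (limma, log2 difference 4.26 ± 0.74 SE, adjusted p = 0.0518), and passed when only genes at FPKM 5 or more in at least 2 libraries were tested (adjusted p = 0.0414). Under either filter Tmprss11e entered only through the Krt6a+ libraries. Its direction was thus set by the filter, and its p is no independent support. Tmprss11f had 11.9 and 1.31 in Krt6a+ cells and was listed at 0 in all 3 WAP+ libraries (limma, adjusted p = 0.188), and it too was tested only through the Krt6a+ libraries. Tmprss11g was at 7.17 in Krt6a+ library 3 and 0 elsewhere, Tmprss11a stayed at or below 0.44 and Tmprss11c was listed at 0 in all libraries. Thus 5 of the 7 genes of the cluster reached FPKM 1 in a Krt6a+ library, and 1, Tmprss11d, did so in a WAP+ library. None of the 100-base words of these 5 genes, the length of a read, recurred in a transcript of another gene in the GENCODE M21 set.

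The other transmembrane proteases were split. Tmprss4, a surface protease often raised in carcinomas, had FPKM 74.4 and 24.0 in Krt6a+ against 0.16, 0 and 6.48 in WAP+ cells, with groups that did not overlap (limma, log2 difference 4.27 ± 1.05 SE, adjusted p = 0.103). Tmprss2, an androgen-regulated protease of glandular epithelia, had 5.49 and 9.66 against 6.32, 6.67 and 9.63, and its difference of -0.13 had a 95% interval of -1.49 to 1.23. Tmprss13 had 4.65 and 2.51 against 2.14, 3.08 and 1.60, with groups that overlapped. Summed over the 17 Tmprss genes, FPKM was 580 and 170 in Krt6a+ against 12.8, 19.2 and 25.4 in WAP+ cells, and Tmprss11 genes made up 85.4% and 78.7% of the sum in the former and 30.4% to 48.6% in the latter.

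**Figure D2:**
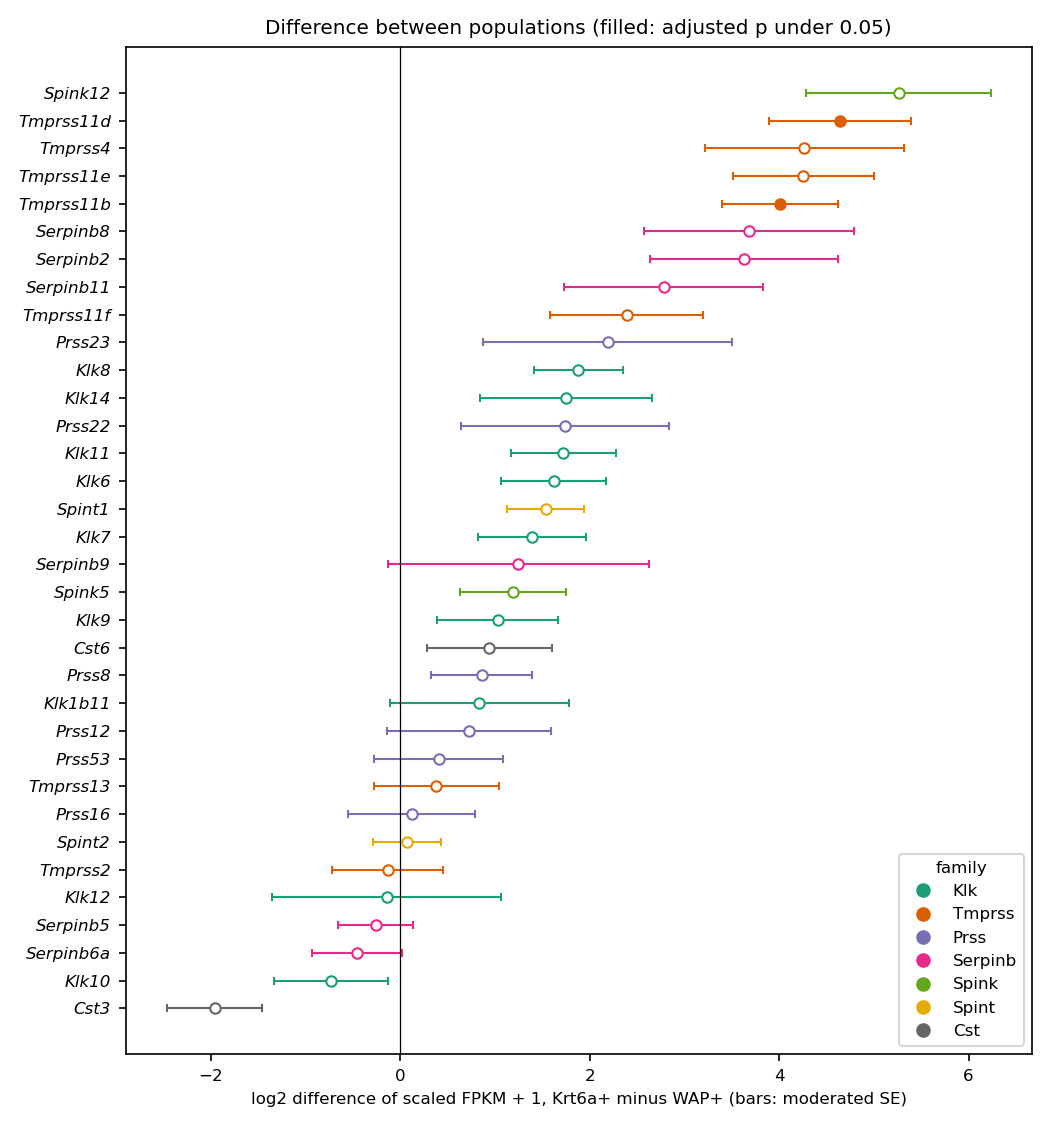
Log2 difference between Krt6a+ and WAP+ libraries of log2(scaled FPKM + 1) for the 34 tested genes, coloured by family; bars are moderated standard errors and filled points have an adjusted p under 0.05. Tmprss11d and Tmprss11b are filled, Spink12 has the highest estimate at 5.26, and Cst3 the lowest at -1.96.

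Kallikreins are secreted trypsin-like or chymotrypsin-like proteases, and the 27 in the tables lie side by side on chromosome 7. Of these, 9 were tested, none passed (0.692% of all tested genes did), and 6 lay above in Krt6a+ libraries (17.4% of all tested genes). Klk8, known as neuropsin and active in epidermis, had FPKM 337 and 541 in Krt6a+ against 99.9, 71.3 and 167 in WAP+ cells. Its log2 difference was 1.88 ± 0.47 SE with a 95% interval of 0.80 to 2.96 (limma, adjusted p = 0.103). Klk11, a trypsin-like kallikrein of glands and skin, had 495 and 178 against 121, 92.6 and 49.4 (log2 difference 1.72 ± 0.56 SE, limma, adjusted p = 0.172). Klk6, also abundant in the nervous system, had 139 and 328 against 47.4, 49.2 and 108 (log2 difference 1.62 ± 0.55 SE, limma, adjusted p = 0.189). The 3 genes did not overlap between populations, yet Krt6a+ library 3 was the higher one for Klk6 and Klk8 and library 2 for Klk11.

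Klk7, the chymotrypsin-like enzyme of the stratum corneum, had FPKM 148 and 72.9 in Krt6a+ against 72.4, 20.1 and 31.5 in WAP+ cells, so that Krt6a+ library 3 and WAP+ library 1 were nearly equal (limma, adjusted p = 0.264). Its partner in desquamation, Klk5, was listed at 0 in all libraries, and Klk14, another activator of the skin cascade, was low at 7.69 and 13.04 against 0, 2.79 and 5.52. Klk9 had 25.4 and 25.05 against 20.0, 4.17 and 14.5. Klk12, at 8.88 and 0 against 6.73, 0 and 4.57, and Klk1b11, at 0 and 8.30 against 0.73, 0 and 1.39, were at 0 in a library of each population and showed no order.

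Klk10 also overlapped between the populations. It was the most abundant one in 4 of the 5 libraries, with FPKM 959 and 374 in Krt6a+ against 712, 693 and 1552 in WAP+ cells. Its log2 difference was -0.73 ± 0.60 SE with a 95% interval of -2.12 to 0.66 (limma, adjusted p = 0.579), and it was 0.06 without Krt6a+ library 3. As a share of all kallikrein FPKM it was 45.1% and 24.3% in Krt6a+ against 64.7%, 73.3% and 80.3% in WAP+ cells. The other 26 kallikreins summed to 1168 and 1166 in Krt6a+ against 388, 253 and 381 in WAP+ cells. Before scaling (factors 1.00 and 1.15 for Krt6a+ libraries 2 and 3) the 2 Krt6a+ sums were almost equal, although the genes that made them up were not. These shares and sums were formed after the values were seen and carry no test.

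Along chromosome 7, Klk10 (43781054 to 43785410) lies between Klk11 and Klk9, both of which lay higher in Krt6a+ libraries, and Klk8, Klk7 and Klk6 follow. Beyond Klk6, the genes Klk5, Klk4 and Klk15 were at 0 and the Klk1b genes were at 0 or low. Of the 12 clade B serpins on chromosome 1, Serpinb11, Serpinb2 and Serpinb8 lay higher in the Krt6a+ libraries and Serpinb5 did not. The remaining 8 were at 0 in all libraries. Both Krt6a+ libraries lay above all WAP+ libraries for 17.4% of all tested genes. Serpinb2 passed the filter on low values only through the Krt6a+ libraries and had to lie higher there. None of these kallikreins and serpins passed the threshold (limma, smallest adjusted p = 0.103, for Klk8). A pattern along either chromosome was not tested. The plot of neighbouring genes gives the differences in their order.

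**Figure D3:**
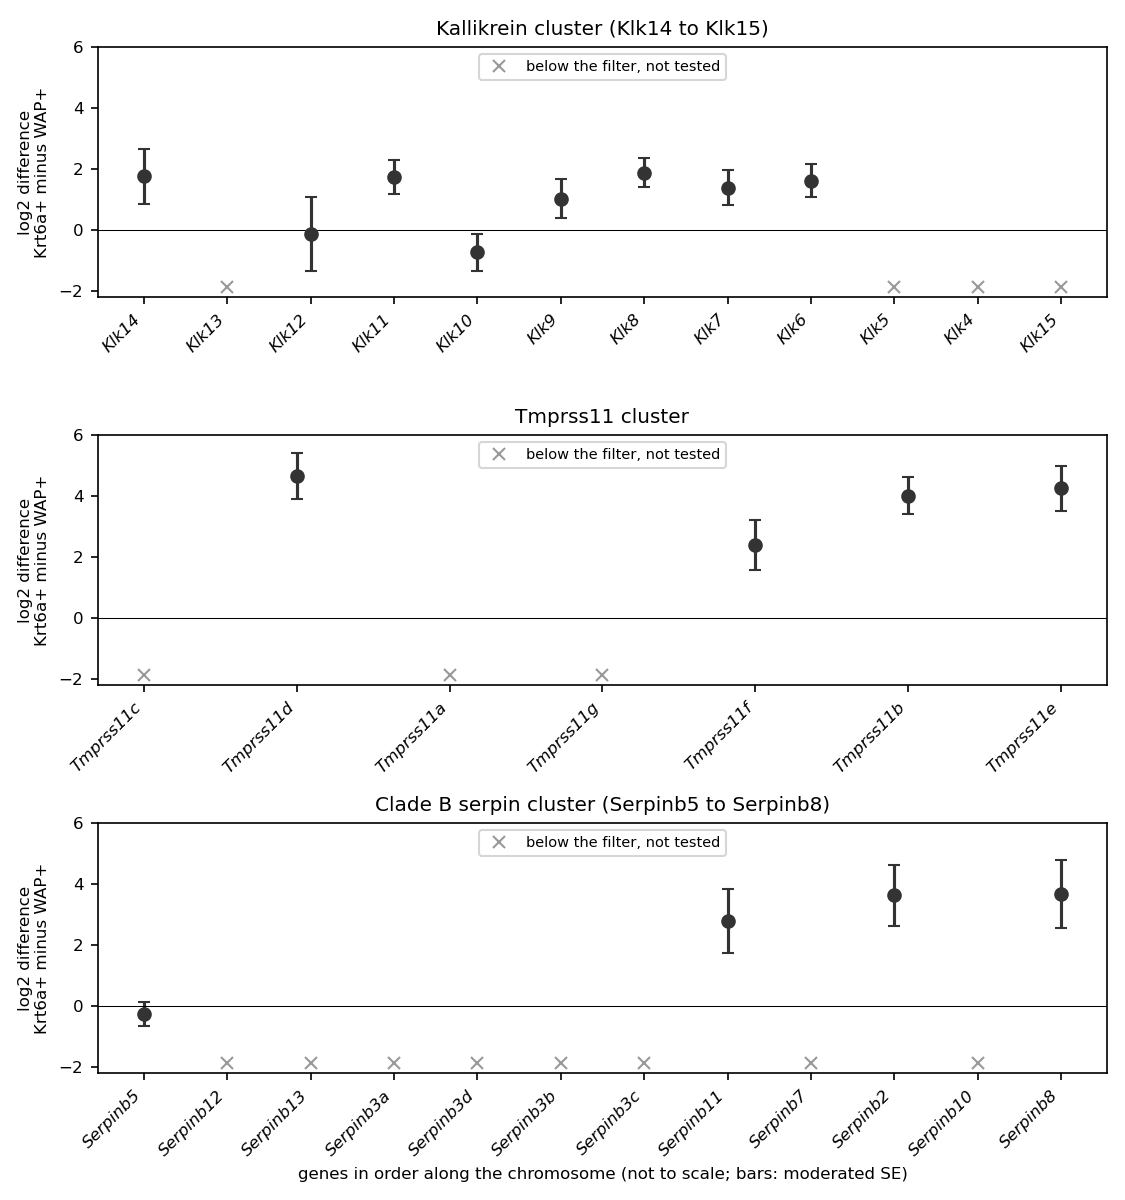
Log2 difference, Krt6a+ minus WAP+, of neighbouring genes in chromosomal order for the first 12 kallikreins, the 7 Tmprss11 genes and the 12 clade B serpins of chromosome 1; bars are moderated standard errors and grey crosses on the lower edge are genes below the filter. Klk10 at -0.73 lies between Klk11 at 1.72 and Klk9 at 1.03, and Serpinb5 lies at -0.26 where Serpinb11, Serpinb2 and Serpinb8 lie at 2.78 to 3.68.

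None of the 6 tested Prss proteases passed (0.692% of all tested genes did), and none separated the populations (34.8% of all tested genes did). Prss8, which encodes prostasin, the membrane-anchored activator of the epithelial sodium channel, had FPKM 95.4 and 36.3 in Krt6a+ against 40.1, 27.7 and 23.0 in WAP+ cells (limma, log2 difference 0.86 ± 0.53 SE, adjusted p = 0.455). Prss22, a tryptase-like protease of airway epithelium, had 161 and 10.5 against 26.9, 7.75 and 6.10. Its difference of 1.74 rested on Krt6a+ library 2, and was -0.26 without it. Prss23 had 5.24 and 47.6 against 20.6, 1.32 and 0, with groups that overlapped. Prss12, the protease neurotrypsin, had 9.81 and 6.92 against 4.67, 0.98 and 11.7. Prss16 and Prss53 stayed at or below FPKM 2.11, and 72.1% of the 100-base words of Prss53 recur in another gene model, Gm21974, so its reads cannot be assigned with certainty.

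Of the inhibitors, Spink12 had the largest estimate, 5.26 ± 0.97 SE, and missed the threshold (limma, adjusted p = 0.0550). This Kazal-type gene lies among other Spink genes on chromosome 18 and had FPKM 157 and 35.9 in Krt6a+ against 5.10, 0.18 and 0 in WAP+ cells. The groups did not overlap, and the value of 0.18 corresponded to about 1.0 fragment. Spink12 passed when only genes at FPKM 5 or more in at least 2 libraries were tested (limma, adjusted p = 0.0414). It did not pass with a pseudocount of 0.1 or 5, no filter, no scaling, quantile normalization or no mean-variance trend. Nor did it pass when a WAP+ library was left out. With each library left out in turn, its log2 difference ran from 4.12 to 6.38. Spink5, whose product LEKTI restrains the skin kallikreins, was low, at 2.38 and 1.20 against 0, 0 and 0.46 (limma, adjusted p = 0.327). Spink5 passed the filter only through the Krt6a+ libraries, which set its direction.

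Of the Kunitz inhibitors of surface proteases, Spint1 separated the populations and Spint2 did not, a contrast between genes that was not tested. Spint1, which encodes HAI-1, the inhibitor of matriptase and prostasin, had FPKM 105 and 83.4 in Krt6a+ against 28.7, 26.5 and 32.2 in WAP+ cells. Each population was tight and the groups did not overlap (limma, log2 difference 1.54 ± 0.41 SE, 95% interval 0.59 to 2.48, adjusted p = 0.120). Spint2, which encodes HAI-2, was at 714 and 482 against 570, 489 and 487, a log2 difference of 0.07 ± 0.36 SE with a 95% interval of -0.76 to 0.90, and its sign turned without Krt6a+ library 2 (-0.31). In every library Spint2 was the more abundant of the pair, with a Spint1 to Spint2 ratio of 0.147 and 0.173 in Krt6a+ against 0.0504, 0.0542 and 0.0660 in WAP+ cells. Matriptase itself, St14, had 18.7 and 29.7 against 20.7, 22.4 and 21.3, and the groups overlapped.

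Clade B serpins were tested for 6 of 27 genes and none passed (0.692% of all tested genes did). Serpinb8, an inhibitor of furin-type and trypsin-like proteases, had FPKM 100 and 26.9 in Krt6a+ against 14.7, 0 and 2.91 in WAP+ cells (limma, log2 difference 3.68 ± 1.11 SE, adjusted p = 0.152). Serpinb11 had 60.2 and 12.1 against 0.13, 5.35 and 5.93 (log2 difference 2.78 ± 1.05 SE, limma, adjusted p = 0.229). Serpinb2, the plasminogen activator inhibitor PAI-2, had 2.74 and 45.8 in Krt6a+ cells and was listed at 0 in all 3 WAP+ libraries (limma, adjusted p = 0.124), and 7.53% of its 100-base words recur in models of its neighbour Serpinb10, itself at 0. For these 3 genes both Krt6a+ libraries lay above all 3 WAP+ libraries, as for 17.4% of all tested genes. Serpinb2 passed the filter only through the Krt6a+ libraries and had to lie higher there. Krt6a+ library 2 was the higher one for Serpinb8 and Serpinb11 and library 3 for Serpinb2.

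The remaining serpins did not separate the populations. Serpinb5, known as maspin and first studied in mammary epithelium, had FPKM 56.3 and 71.2 in Krt6a+ against 111, 56.5 and 54.4 in WAP+ cells, with a log2 difference of -0.26 and a 95% interval of -1.17 to 0.65. Serpinb6a, an inhibitor of cathepsin G and trypsin, had 39.2 and 39.8 against 61.5, 29.7 and 69.7, and its interval was -1.56 to 0.64. Serpinb9, the granzyme B inhibitor, was at 22.2 in Krt6a+ library 3, 5.18 in WAP+ library 3 and 0 in the other libraries. Serpinb3a, Serpinb3b, Serpinb3c and Serpinb3d, the mouse relatives of the squamous cell carcinoma antigens, and Serpinb7, Serpinb12 and Serpinb13 were listed at 0 in all libraries.

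**Figure D4:**
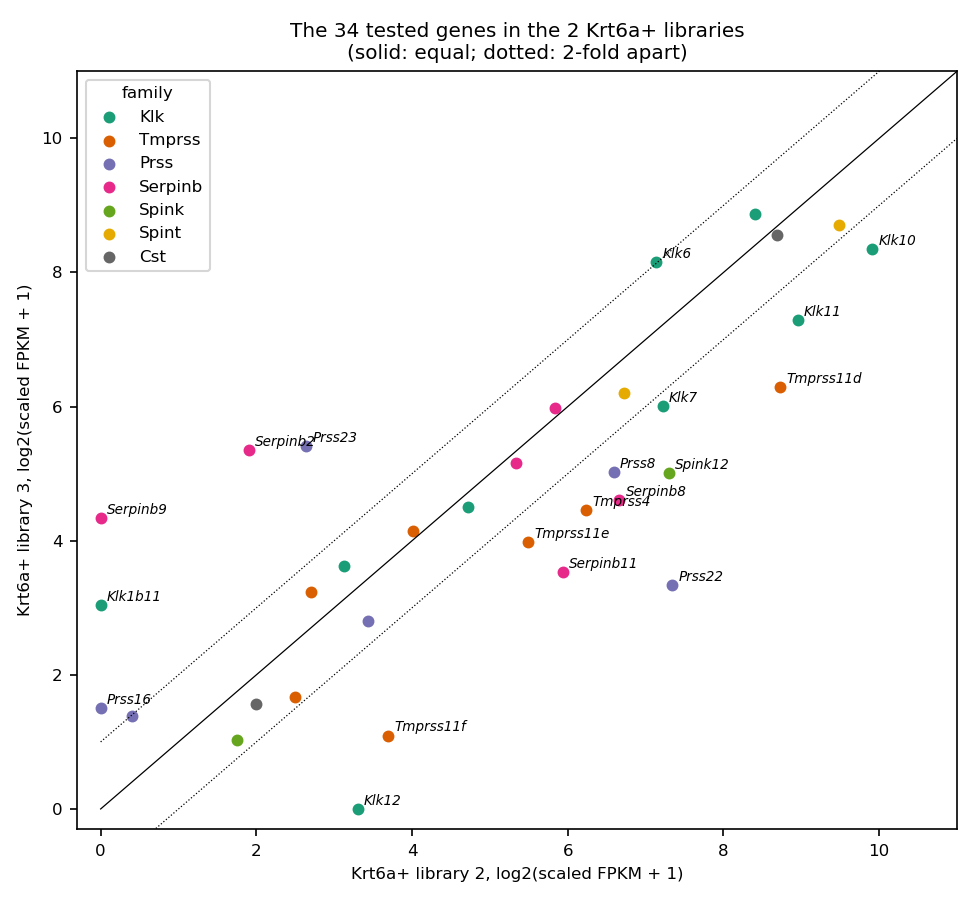
Scaled FPKM of the 34 tested genes, as log2(value + 1), in Krt6a+ library 2 (x axis) and library 3 (y axis), coloured by family; names are given for genes more than 2-fold apart (dotted lines) on this scale. There are 13 such genes on the side of library 2, among them Prss22, Tmprss11d and Spink12, and 6 on the side of library 3, among them Serpinb2, Serpinb9 and Klk6.

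The 2 Krt6a+ libraries differed in which of these genes were high. Of the 34 tested genes, 13 were more than 2-fold higher on the log2(FPKM + 1) scale in library 2 (38.2%, against 20.9% of all tested genes) and 6 in library 3 (17.6%, against 22.4%). Those higher in library 2 included 4 of the 7 Tmprss genes, Prss8 and Prss22, Klk7, Klk10 and Klk11, Serpinb8, Serpinb11 and Spink12. Those higher in library 3 were Serpinb9, Serpinb2, Klk1b11, Prss23, Prss16 and Klk6. Among the skin differentiation markers, Krtdap, a keratinocyte gene, was at FPKM 214 in library 2 and 42.4 in library 3, while Krt10 was at 2.35 and 5.08. Among the fibroblast markers, Dcn was at 49.4 in library 2 and 210 in library 3, while Col1a1, Col1a2 and Col3a1 were at 2.44, 4.12 and 1.51 in library 2 and at 0 in library 3. Their part in these differences was not tested, and no replicate of either library was measured.

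Cystatin C, encoded by Cst3 and a secreted inhibitor of cysteine cathepsins, was the gene for which all WAP+ libraries lay above both Krt6a+ libraries. It had FPKM 412 and 433 in Krt6a+ against 2731, 1836 and 689 in WAP+ cells. The Krt6a+ libraries were close together and the WAP+ libraries spread about their mean, with scaled means of 394 ± 25.2 (SD, n = 2) and 1700 ± 824 (SD, n = 3). The log2 difference was -1.96 ± 0.50 SE, 95% interval -3.13 to -0.79, and did not pass (limma, adjusted p = 0.113). The leukocyte markers did not go one way. Cd74 had 0 and 0 against 0.74, 1.40 and 4.81, and Csf1r had 0 and 0 against 1.03, 0 and 0. Cd79a had 0 and 3.59 against 0 in all WAP+ libraries, and the remaining markers were at 0 throughout. The part of any of them in the difference of Cst3 was not tested. Cst6, which encodes cystatin M/E of skin, was low, at 2.99 and 2.25 against 1.46, 1.33 and 0.04.

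Summed over families, Cst3 held a large share of the inhibitors. The 53 inhibitors summed to FPKM 1653 and 1262 in Krt6a+ against 3525, 2459 and 1366 in WAP+ cells, of which Cst3 was 24.9% and 34.3% in the former and 77.5%, 74.6% and 50.4% in the latter. Without the cystatins the inhibitors summed to 1239 and 827 against 792, 622 and 677. The 82 proteases summed to 3058 and 1816 in Krt6a+ against 1210, 1002 and 2004 in WAP+ cells, so the groups overlapped, and Klk10 alone had 1552 in WAP+ library 3. No test is given for these sums, since the 10 ways to split 5 libraries let an exact permutation test reach p = 0.1 at best.

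**Figure D5:**
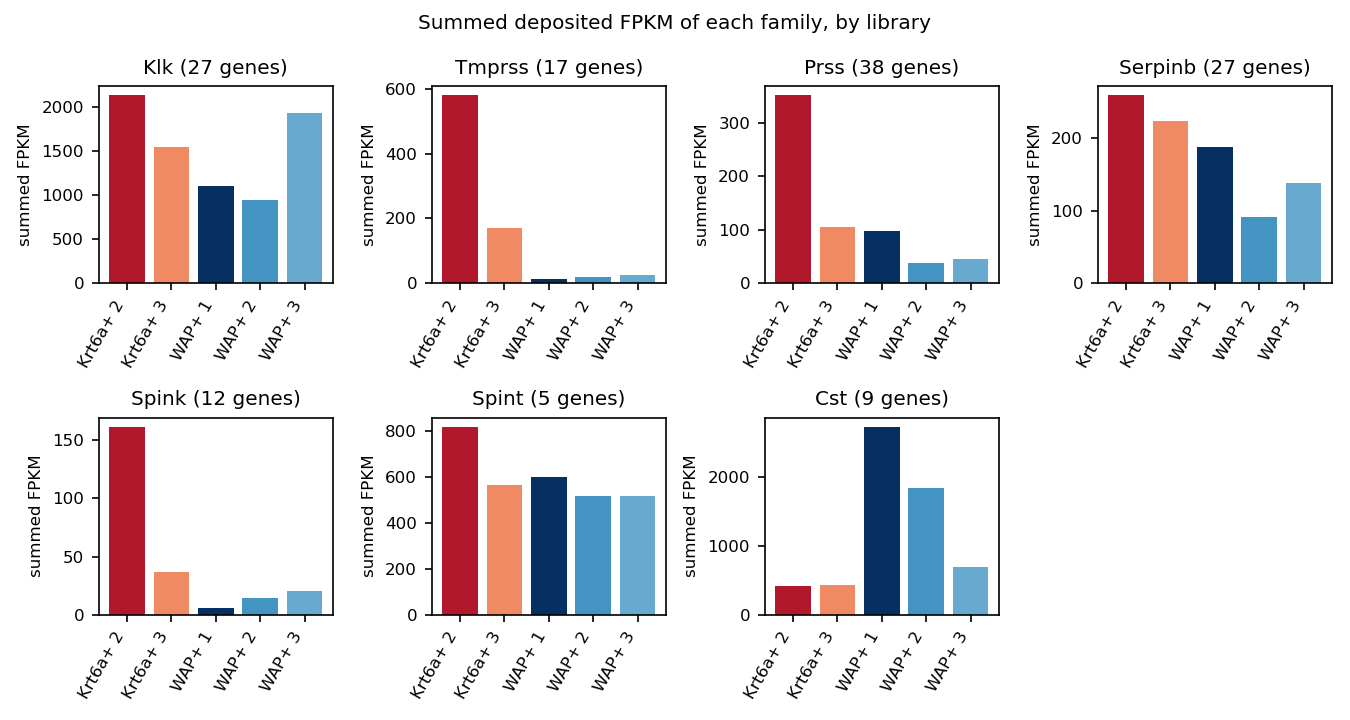
Summed deposited FPKM of all genes of each family (number of genes in the panel title) in each library, on linear axes from 0 that differ between panels. Tmprss sums are 580 and 170 in Krt6a+ against 12.8 to 25.4 in WAP+ cells, Spint sums overlap, and Cst sums are highest in WAP+ libraries 1 and 2.

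Of 6 lists of related genes that had tested members, none had a member past the threshold, against 0.692% of all tested genes. Their counts at an unadjusted p under 0.05 were 6 higher and 3 lower of 36 tested members, against 7.68% and 9.44% of all tested genes. Among substrates and receptors of these proteases (9 tested of 20), Cdsn, the corneodesmosin that skin kallikreins cut, had FPKM 53.6 and 4.74 in Krt6a+ against 0.19, 0.07 and 0.37 in WAP+ cells (limma, adjusted p = 0.118). Il18, a cytokine released by proteolysis, had 4.65 and 15.4 in Krt6a+ cells and was listed at 0 in all 3 WAP+ libraries (limma, adjusted p = 0.0706). Cdsn and Il18 were tested only through the Krt6a+ libraries, so the filter set their direction and their p-values are no independent support. Scnn1a, the sodium channel subunit whose complex prostasin activates, had 8.42 and 11.9 against 2.16, 0 and 1.76.

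Among the other cysteine protease inhibitors (2 tested of 10), Cstb, the intracellular cystatin B, had FPKM 1149 and 1471 in Krt6a+ against 3964, 4419 and 3173 in WAP+ cells (limma, log2 difference -1.67 ± 0.34 SE, adjusted p = 0.0685), the same order as Cst3. Cystm1, the other tested gene of that list, had 101 and 70.9 against 95.5, 106 and 94.6. Of the cathepsins (8 tested of 14), Ctsd, an aspartic protease that cystatins do not inhibit, had 465 and 345 against 173, 65.3 and 103 (limma, log2 difference 1.80 ± 0.43 SE, adjusted p = 0.0994), and Ctsh, a cysteine cathepsin, had 58.5 and 14.1 against 82.4, 82.5 and 49.9. Of the other serine protease inhibitors (3 tested of 13), Slpi, the secretory leukocyte protease inhibitor, was the most abundant, at 3091 and 9654 against 3104, 2365 and 2115 (limma, adjusted p = 0.317), and App had 33.7 and 85.6 against 30.2, 27.0 and 24.0.

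Of the serpins of other clades (6 tested of 12), Serpinf1, the secreted factor PEDF, was listed at 0 in both Krt6a+ libraries and had FPKM 10.3, 3.85 and 9.07 in WAP+ libraries (limma, adjusted p = 0.0818). Serpinf1 was tested only through the WAP+ libraries, so the filter set its direction. Of the activator and membrane proteases (8 tested of 15), Plau, the urokinase that Serpinb2 inhibits, had 23.0 and 6.44 against 8.22, 0.68 and 0.86, and Htra3 had 28.6 and 9.56 against 8.65, 0.11 and 0.25. Of 12 leukocyte serine proteases none was tested, and 10, among them Elane, Ctsg, Cma1 and Gzmb, were listed at 0 in all libraries.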

How the data were processed

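The values are FPKM that the authors deposited, 1 table per library of 34535 RefSeq transcripts with 24347 symbols. Each value had a lower and an upper confidence bound, whose level the headers do not name and which was read as 95%. The submitters' processing notes name TopHat, Cufflinks and build mm10, with versions not given in the sources used here. Per the labels' protocols, cDNA was amplified with SMART-Seq v4 and tagmented with Nextera, a chemistry that marks no strand, so antisense overlaps are not resolved. Housekeeping genes were affected by zeros: Gapdh was at 0 in 3 libraries and Eno1 in 5, so a value of exactly 0 may be an estimate that failed. Fragments behind a value were read from the width of its interval. Only 57.1% to 58.6% of those at or below 200 came within 0.02 of an integer, which is why no read counts were rebuilt or modelled.

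The FPKM of all transcripts of a symbol was added up and scaled by a median-ratio factor per library (0.891 to 1.16, over 5334 genes), and genes at FPKM 1 or more in at least 2 libraries were tested on log2(scaled FPKM + 1) with limma 3.58.1 in R 4.3.3 (eBayes with trend, 4.88 prior and 3 residual degrees of freedom, two-sided tests, Benjamini-Hochberg over 9682 genes, threshold 0.05). A fold on this scale understates the change of low genes. SDs are over scaled FPKM, and levels are deposited FPKM. The fit was tested on simulated data.

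The families, gene lists and markers were chosen with earlier results of these data known. By rule, values were given for genes past the threshold, the 8 highest and 8 lowest statistics, the 2 most abundant genes of each family, the genes seen in 1 library, Krt6a and Wap, and of each related list the 2 genes with the largest statistic. The other genes of the 7 families, St14, Scnn1a and the single marker genes were picked with their values in view. Some items that the rule names are not reported here. Start positions in the files were counted from 0 and are given from 1.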

Additional observations from a re-analysis of the deposited data

How the results depend on the processing

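Of the 34 tested genes, 27 kept the sign of their log2 difference under every alternative that could be run for them, out of 14. Over all genes, 25 were called higher and 42 lower. These counts became 6 and 20 with a pseudocount of 0.1, 2 and 3 with no filter, 71 and 92 with FPKM 5 or more in 2 libraries, and 7 and 9 with no mean-variance trend. The higher count became 43 with a pseudocount of 5 and 39 with quantile normalization, and the lower count 27 with no scaling. With each library left out in turn they ranged from 2 to 45 and from 3 to 103. Of the protease and inhibitor genes, 2 were higher, 0 with a pseudocount of 0.1 or no filter, 4 with the stricter filter (Spink12, Tmprss11b, Tmprss11d and Tmprss11e), 1 with no trend (Tmprss11b), and 0 to 2 with a library left out; 0 were lower in every refit, with 1 at an unadjusted p under 0.05 in limma.

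Replicate numbers 2 and 3 occur in both populations, and the labels do not say that they pair libraries. The deviations of same-numbered libraries had a correlation of 0.0287 over 9682 genes. This value cannot tell whether they shared a mouse or a preparation. With the replicate numbers as a replicate block, 16 genes were higher and 22 lower over all genes. Of the protease and inhibitor genes, 1 was higher, Spink12 (limma, adjusted p = 0.0413), and the calls of Tmprss11d (0.0650) and Tmprss11b (0.0903) were lost.

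Signs turned as follows, and the cause was not tested. The difference of Klk12 was 0.027 with a pseudocount of 5 and 0.34 with the replicate block, and that of Prss16 -0.26 with a pseudocount of 0.1. With a library left out, the range was -1.80 to 1.500 for Klk12, -0.15 to 0.88 for Prss16, -1.51 to 0.057 for Klk10, -0.26 to 3.75 for Prss22, -0.31 to 0.46 for Spint2, -0.028 to 0.80 for Tmprss13, -0.39 to 0.14 for Tmprss2 and -0.68 to 0.024 for Cystm1. Where 1 Krt6a+ library was left out, the other was assumed to vary like the WAP+ libraries. A gene seen in too few of the remaining libraries, such as Tmprss11b without a Krt6a+ library, could not be tested. With 2 libraries against 3, even differences whose 95% interval excluded 0 could fail to pass, such as those of Klk8 (0.80 to 2.96), Spint1 (0.59 to 2.48) and Cst3 (-3.13 to -0.79). In the simulated data, noise was normal and changes were placed only in genes with a mean log2(scaled FPKM + 1) above 2, so lower genes with zeros are not described. There, 0% of 4-fold changes and 62.8% of 16-fold changes were called. A gene that did not pass was therefore not shown to be equal between the populations.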

Other observations

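Of the 135 genes, 88 stayed below FPKM 1 in all libraries and 84 of these were listed at 0 throughout. Another 13 reached FPKM 1 in 1 library only and were not tested. The highest of them was Prss27, a membrane-anchored protease of squamous epithelium also known as marapsin, at FPKM 77.7 in Krt6a+ library 2, 0.47 in Krt6a+ library 3, 0.20 in WAP+ library 1 and 0 in the others. It starts at base 24038243 of chromosome 17 in mm10, and Prss22, which starts at base 23993534, was also highest in Krt6a+ library 2, at 161. Prss32 (1.39), Spink10 (2.20) and Klk1b8 (5.66) were likewise seen in Krt6a+ library 2, and Tmprss11g (7.17) and Serpinb1a (5.71) in Krt6a+ library 3. The WAP+ libraries held Klk1b27 (9.78), Klk1b21 (9.65) and Prss36 (4.40) in library 1, Spink4 (14.7) and Klk13 (12.4) in library 2, and Spink8 (19.9) and Prss57 (2.05) in library 3. Klk1b21 and Klk1b27 share 3.50% and 1.77% of their 100-base words with other genes, each other included, so their split is uncertain. Just inside the filter, Prss53 had 1.86 and 1.59 and Prss16 had 2.11 and 1.17 in the 2 libraries where they reached FPKM 1.

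Where a gene had several transcripts, their shares varied between libraries of 1 population. For Klk11, the transcript NM_001177373, which starts upstream of the other, took 68.5% and 72.0% of the FPKM in Krt6a+ against 100%, 13.6% and 0% in WAP+ cells. For Spint2 all FPKM was assigned to NM_001082548 and for Serpinb6a to NM_009254 in every library.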
